A study of Mus musculus with 6 samples.

Results

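Fpr1 and Marco encode receptors by which phagocytes sense bacteria, and their transcripts were measured in mouse osteoclast precursors cultured for 2 days with or without sRANKL, in the presence of M-CSF. Both genes were selected because sRANKL-treated cells held far more of their transcript than control cells on these same arrays, so the difference between the treatments is given below as a description, without a test. They are 2 of the 522 genes that the authors' deposited list of changed probe sets names. Each is measured by 1 probe set, so no choice among probe sets was needed.

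The cells came from the bone marrow of wild-type SV129/BL6 mice. The culture methods give an age range in weeks for marrow donors of the study in general, and the array methods give none. In each of 3 independent experiments the marrow of 3 mice was pooled, mononuclear osteoclast precursors were enriched by centrifugation, and the cells were split into partner dishes. A pre-culture in M-CSF preceded this centrifugation in the array methods and followed it in the sample records. One dish of each pair received 20 ng/ml M-CSF with 200 ng/ml sRANKL and the other 20 ng/ml M-CSF alone, giving 3 arrays per group (Affymetrix Mouse Gene 1.0 ST). Per the sample records the sRANKL was purified from a bacterial expression construct, and no dish received such a preparation without sRANKL. Effects of sRANKL and of any other content of the preparation cannot be told apart by this design. The experiments, each a pool of mice, are the replicates, and their number limits the precision.

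Fpr1 is a G protein-coupled receptor for N-formyl peptides, which bacteria and mitochondria release, and is best known on neutrophils and monocytes, where it drives chemotaxis and the oxidative burst. Marco is a trimeric scavenger receptor with a long collagenous stalk. It binds bacteria and inhaled particles through its terminal cysteine-rich domain, and is best known on macrophages of the splenic marginal zone and the lung. M-CSF sustains cells of the macrophage lineage, while RANKL directs them into osteoclastogenesis (OCG), in which they fuse into bone-resorbing cells.

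In the authors' list Fpr1 (Entrez 14293, NM_013521) lies on chromosome 17 from 18013433 to 18020903 and Marco (Entrez 17167, NM_010766) on chromosome 1 from 122371115 to 122401661, both on the minus strand, in a genome build that the sources used here do not give. In the order of protein-coding genes in RefSeq (GRCm38.p6), Fpr1 lies between Has1 and Fpr2, with its relative Fpr3 next to Fpr2. Marco lies between C1ql2 and En1, away from other scavenger receptors. The 250 bases before each RefSeq start are shown as a description only, without a test. They lie at chr17:17883940-17884189 for Fpr1 and chr1:120505025-120505274 for Marco (GRCm38.p6, minus strand, written 5′ to 3′). Capitals mark every match, on either strand, to the motifs searched.
Fpr1: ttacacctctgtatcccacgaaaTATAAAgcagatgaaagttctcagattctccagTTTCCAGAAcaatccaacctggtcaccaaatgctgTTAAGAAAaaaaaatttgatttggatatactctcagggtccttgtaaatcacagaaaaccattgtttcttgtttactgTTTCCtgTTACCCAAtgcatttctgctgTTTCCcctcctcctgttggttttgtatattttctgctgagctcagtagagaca
Marco: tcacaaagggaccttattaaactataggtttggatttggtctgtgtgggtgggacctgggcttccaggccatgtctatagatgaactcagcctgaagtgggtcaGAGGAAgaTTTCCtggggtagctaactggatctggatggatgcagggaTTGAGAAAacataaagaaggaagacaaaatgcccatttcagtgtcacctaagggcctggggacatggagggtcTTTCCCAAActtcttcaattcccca
The motifs were the PU.1 core GAGGAA, the AP-1 site TGANTCA, the NFAT core GGAAA, the C/EBP site TTNNGNAA, the E-box CACGTG, the TATA box TATAAA, and the kappaB site and ISRE by their usual consensus. These are motifs of factors active in macrophages and osteoclasts, with the TATA box for comparison. Fpr1 held 3 matches to the NFAT core, 3 to the C/EBP site and 1 to the TATA box, the last from 227 to 222 bases before the start. Marco held 1 match to the PU.1 core, from 146 to 141 bases before the start, 2 to the NFAT core and 3 to the C/EBP site. In both windows an NFAT core match overlaps a C/EBP match, and 2 of the C/EBP matches of Marco overlap each other. The NFAT core and the C/EBP site, the motifs that both windows held, were present in 55.6% and 36.8% of the 32851 RefSeq windows of this length. The PU.1 core was present in 23.3% and the TATA box in 12.4%. No match to the AP-1 site (6.75% of windows), the kappaB site (7.25%), the ISRE (2.98%) or the E-box (6.02%) was found in either window. A match is a match of letters only.

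Under sRANKL, Fpr1 had an RMA intensity of 3875, 4997 and 4360 in Experiments 1, 2 and 3, and its partner dishes under M-CSF alone had 394.7, 64.47 and 79.77. The 3 sRANKL arrays were close together, while the control array of Experiment 1 stood well above the other 2. On the log2 scale the sRANKL arrays averaged 12.10 ± 0.18 (SD, n = 3) and the control arrays 6.98 ± 1.43 (SD, n = 3). The log2 fold change of 5.11 (standard error 0.63) equals 34.6-fold. Marco, measured on the same arrays, had intensities of 3435, 4008 and 3477 under sRANKL and of 292.7, 60.34 and 79.11 in the control dishes. Its arrays had the same order as those of Fpr1, with Experiment 2 highest under sRANKL and lowest under M-CSF alone. Its log2 values averaged 11.83 ± 0.12 (SD, n = 3) under sRANKL and 6.81 ± 1.22 (SD, n = 3) in controls, a log2 fold change of 5.02 (standard error 0.54), or 32.5-fold. Both standard errors were moderated by limma towards the variance of other rows. The log2 differences between partner dishes had an SD of 1.60 for Fpr1 and 1.31 for Marco.

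For both genes every sRANKL array was higher than every M-CSF alone array. The same held for 45.2% of the 2859 rows analysed, and since the genes were selected on this contrast nothing is read from it. These rows come from probe sets already selected before deposit, so shares of all rows do not describe the whole array. The gap between the lowest sRANKL array and the highest control array was 9.82-fold for Fpr1 and 11.7-fold for Marco. By fold change Fpr1 ranked the second and Marco the third of the 522 named genes, after the chemokine gene Ccl12, and 2 rows without a gene name were also above Marco. In bulk RNA, more cells that carry a transcript and more transcript per cell cannot be told apart.

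**Figure D1:**
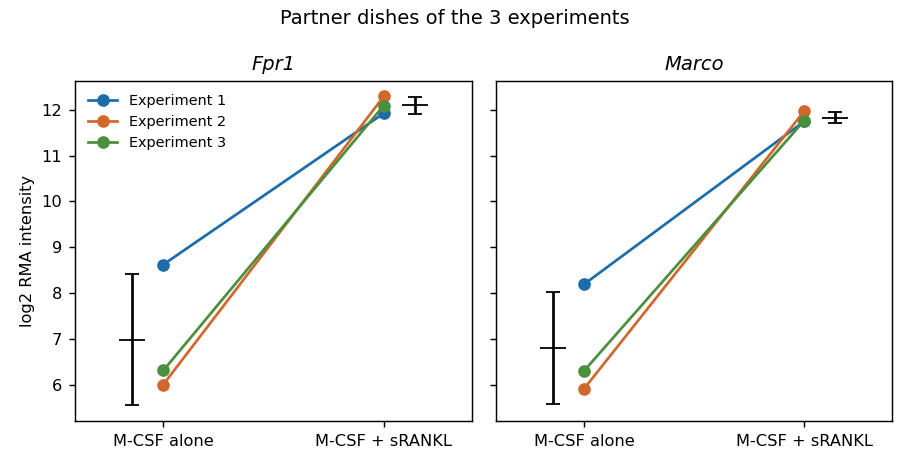
Log2 RMA intensity of Fpr1 (left) and Marco (right) in the partner dishes of each experiment, joined by a line. Black bars give the mean ± SD of the 3 arrays of a group. The sRANKL arrays lie between 11.75 and 12.29 for both genes, whereas the control array of Experiment 1 lies at 8.62 and 8.19 and the other controls between 5.92 and 6.32.

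The size of the difference varied between experiments, and it varied through the control dishes. Fpr1 was 9.82-fold higher with sRANKL than in its partner dish in Experiment 1, 77.5-fold in Experiment 2 and 54.7-fold in Experiment 3. Marco was 11.7-fold, 66.4-fold and 43.9-fold higher in the same experiments. The sRANKL arrays spanned 0.37 log2 units for Fpr1 and 0.22 for Marco, against 2.61 and 2.28 for the controls. Leaving out the control array of Experiment 1, the increase was 61.2-fold for Fpr1 (log2 5.93, standard error 0.18) and 52.5-fold for Marco (log2 5.72, standard error 0.17). Without both arrays of that experiment it was 65.1-fold and 54.0-fold. Thus that 1 control array moved both estimates by more than 1.5 times and widened their standard errors. Within an experiment, the log2 difference of Fpr1 minus that of Marco was -0.26, 0.22 and 0.32, with a mean of 0.09 ± 0.31 (SD, n = 3), so the order of the genes by size of difference was not the same in every experiment.

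The control array of Experiment 1 was brighter than the mean of the other controls by 2.46 log2 units for Fpr1, or 5.50-fold, and by 2.08 for Marco, or 4.24-fold. Over all 2859 rows this difference had a median of -0.15, with the 5th percentile at -1.09 and the 95th at 0.53. Only 8 rows reached 2 log2 units, and Fpr1 and Marco ranked the sixth and the eighth of all rows and the second and the third of the named genes. The named genes next below them were Il1a, the cytokine interleukin-1 alpha, at 3.78-fold, and Cstdc5, a stefin, at 3.76-fold. Of all rows 742 (26.0%) were brightest on this array among the controls. Of the 341 named genes that were higher with sRANKL 139 (40.8%) were, and of the 181 lower ones 75 (41.4%), so that both shares were above that of all rows and close to each other. The sRANKL dish of the same experiment did not stand above its group, its value being lower than the mean of the other sRANKL arrays by 0.27 log2 units for Fpr1 and 0.12 for Marco (log2 differences of -0.27 and -0.12). What set this dish apart was not tested.

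**Figure D2:**
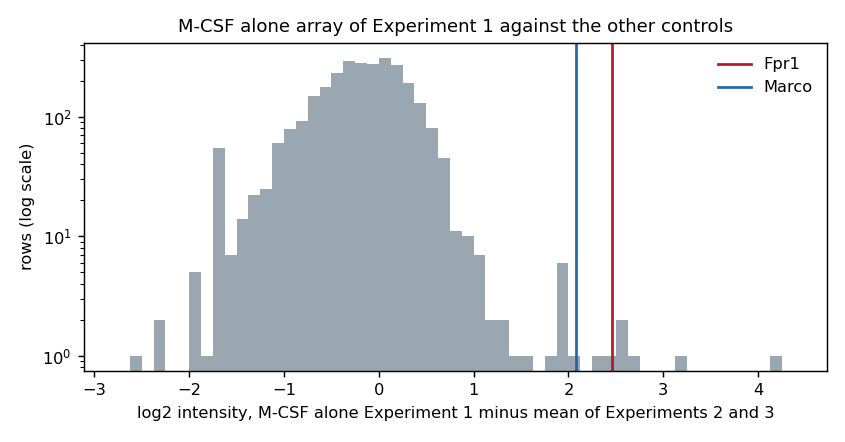
Histogram over the 2859 rows of the log2 intensity on the control array (M-CSF alone) of Experiment 1 minus the mean of the other 2 controls, with the number of rows on a log scale. The vertical lines mark Marco at 2.08 and Fpr1 at 2.46, in the sparse right tail, and 95% of rows lie below 0.53.

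The genes with the profile most like that of Fpr1 and Marco were sought among the other named genes by Pearson's r of log2 intensity over the 6 arrays. Since the treatments set 2 clusters of arrays apart, many genes have a high r, and 101 of the 519 genes compared exceeded 0.95 with Fpr1 and 128 with Marco. Fpr1 and Marco had an r of 0.9990 with each other. For Fpr1 the 5 highest were Upp1 (r = 0.9997), Marco, Mmp14 (0.9982), Mmp9 (0.9942) and Cstdc5 (0.9930). For Marco they were Mmp14 (0.9998), Upp1 (0.9991), Fpr1, Mmp9 (0.9973) and Stfa1 (0.9963). Upp1 is uridine phosphorylase, a pyrimidine salvage enzyme, Mmp14 and Mmp9 are matrix metalloproteinases, and Cstdc5 and Stfa1 are stefins of myeloid cells. Deviations from the group means, which leave out the treatment difference, correlated with those of Fpr1 at 0.998 for Upp1, 0.997 for Marco, 0.992 for Mmp14, 0.966 for Mmp9 and 0.928 for Cstdc5. All points share the same 6 arrays, and the control array of Experiment 1 held 64.8% of the squared deviations of Fpr1 and 64.3% of those of Marco.

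Upp1 had intensities of 774.7, 936.5 and 829 with sRANKL and of 152.1, 47.84 and 51.26 with M-CSF alone in Experiments 1, 2 and 3. For Mmp14 the values were 3022, 3142 and 2788 under sRANKL, against 293.4, 72.51 and 89.94 in the control dishes. Both thus showed a raised control array in Experiment 1, by 3.07-fold and 3.63-fold over the mean of the others. Their increases within an experiment ran from 5.09-fold to 19.6-fold for Upp1 and from 10.3-fold to 43.3-fold for Mmp14, and Experiment 1 was the lowest for both. Leaving out that control array moved Mmp14 from 24.0-fold to 36.9-fold. The root mean square difference of the profiles also takes the size of the change into account. By it the nearest gene to Fpr1 was Marco and the nearest to Marco was Fpr1, at 0.145 log2 units. For both, Mmp14 and Ccl7, a monocyte chemokine, followed. Since both genes were selected for a large change, their nearness by this measure follows largely from that selection. Without the control array of Experiment 1, Upp1, Marco and Mmp14 were still among the 5 nearest to Fpr1 by r, together with Irak3, a brake on Toll-like receptor signalling, and Gpr84, a receptor for medium-chain fatty acids.

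**Figure D3:**
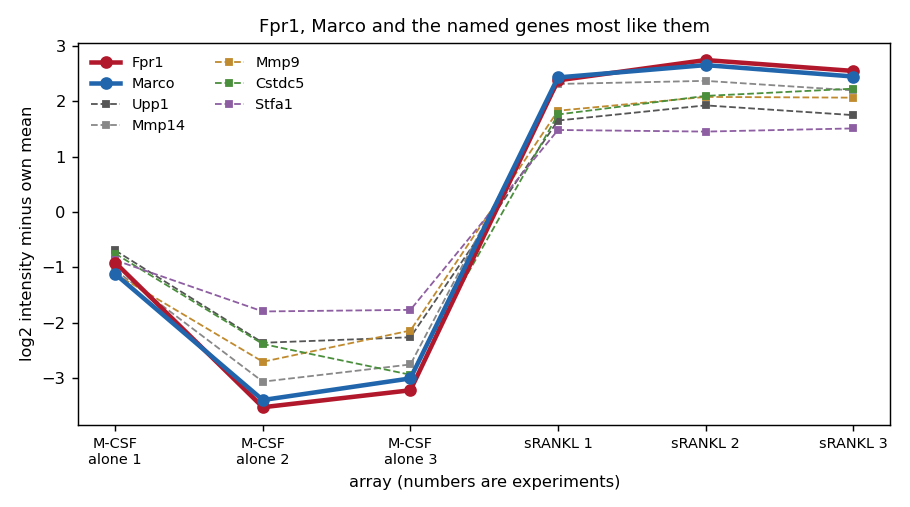
Log2 intensity on each of the 6 arrays minus the gene's own mean, for Fpr1 and Marco (thick lines) and the 5 other named genes most like them by Pearson's r (dashed). Lines join arrays only to guide the eye. Every gene shown is higher on the control array of Experiment 1 than on the other controls, and the lines of Fpr1 and Marco nearly coincide.

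Among 158 listed genes for other sensors of microbes, chemoattractant receptors and their partners, 23 are named in the tables, Fpr1 and Marco among them. Names exist only for probe sets on the authors' list of changes of at least 2-fold, so all named genes pass the test here too, and a count of those that pass is fixed by that selection. The adjusted p-values given below for single named genes are bound by the same selection. They are given as description and are not read as evidence of a change. By limma, 78.2% of all rows, themselves a selected part of the array, passed an adjusted p of 0.05, 44.9% as higher and 33.2% as lower. Of the 23 genes 14 were higher and 9 lower, a split near that of all named genes, of which 65.3% were higher. Their median log2 fold change was 1.29, beside 0.42 over all rows and 1.17 over all named genes. After Fpr1 and Marco the largest increase in these lists was 15.2-fold. Outside the named genes no listed receptor was analysed here.

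Of the 7 formyl peptide receptor genes 2 are named. Fpr3, a relative of Fpr1 from the same gene cluster, had intensities of 138.9, 136 and 116.2 with sRANKL and of 47.4, 64.53 and 54.93 with M-CSF alone, and rose 2.36-fold (adjusted p = 0.00127, limma). Its groups did not overlap, a separation in this direction that 45.2% of all rows showed. Its control array of Experiment 1 was the lowest of the 3, at 0.796 of the mean of the others, whereas that of Fpr1 was the highest. Probe sets of such related genes can share signal, and probe sequences were not used here. Of the 19 scavenger receptors 4 are named, and Marco was the only one that was higher. Cd5l, a secreted scavenger-type protein of macrophages, fell to 0.257 of the M-CSF alone level, Colec12, a collagenous scavenger receptor of the same class as Marco, to 0.294, and Lrp1, a large endocytic receptor, to 0.472 (adjusted p from 0.000968 to 0.00183, limma). Colec12 had intensities of 255.2, 323.1 and 342.2 with sRANKL and of 797.1, 1052 and 1328 with M-CSF alone, again without overlap but in the opposite direction to Marco, a separation shown by 32.6% of all rows.

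Among the 29 C-type lectin receptors, which bind microbial sugars, 6 of the 9 named genes rose and 3 fell. This split was near that of all named genes, of which 65.3% were higher. Cd209f, a relative of DC-SIGN, rose 15.2-fold (adjusted p = 0.000103, limma), from 41.46, 44.56 and 48.46 with M-CSF alone to 934.5, 542.9 and 614.9 with sRANKL. It differed from Fpr1 and Marco in its controls, which were nearly level. Those control values were low, and whether they stood above background was not checked. Cd209a and Clec10a, lectins of dendritic cells and macrophages, fell to 0.147 and 0.164 of the M-CSF alone level (adjusted p of 0.000255 and 0.00177, limma). Of 23 Toll-like receptors and partners 2 are named. Irak3 rose 2.45-fold, and Ly86, the partner of the LPS-responsive receptor CD180, fell to 0.385 (adjusted p of 0.00062 and 0.000621, limma). Of 22 cytosolic sensors only Zbp1, a sensor of Z-form nucleic acid, is named, and rose 3.95-fold (adjusted p = 0.000224, limma).

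Of 20 listed chemoattractant receptors outside the formyl peptide family 2 are named, and both fell. Ccr7, which that list does not hold, was 5.25-fold higher (adjusted p = 0.00081, limma). Ccr2, the monocyte receptor for Ccl2, fell to 0.49 of the M-CSF alone level, and Cxcr4, the receptor for Cxcl12 that holds cells in the marrow, to 0.39 (adjusted p of 0.00306 and 0.000987, limma). Ccr2 had intensities of 1597, 2041 and 2363 with sRANKL and of 3518, 4317 and 4313 with M-CSF alone. Of 24 genes for signalling, oxidase subunits and ligands of formyl peptide receptors only Fgr, a Src-family kinase of phagocytes, is named, and rose 2.03-fold (adjusted p = 0.00142, limma). Of 14 soluble recognition proteins 2 are named and both rose, Cfb, complement factor B, 11.4-fold, and C3, the central complement component, 3.39-fold (adjusted p of 0.000721 and 0.00062, limma). The control array of Experiment 1 was between 0.674 and 1.98 of the mean of the other controls in the 21 list genes besides Fpr1 and Marco, with a median of 1.10.

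**Figure D4:**
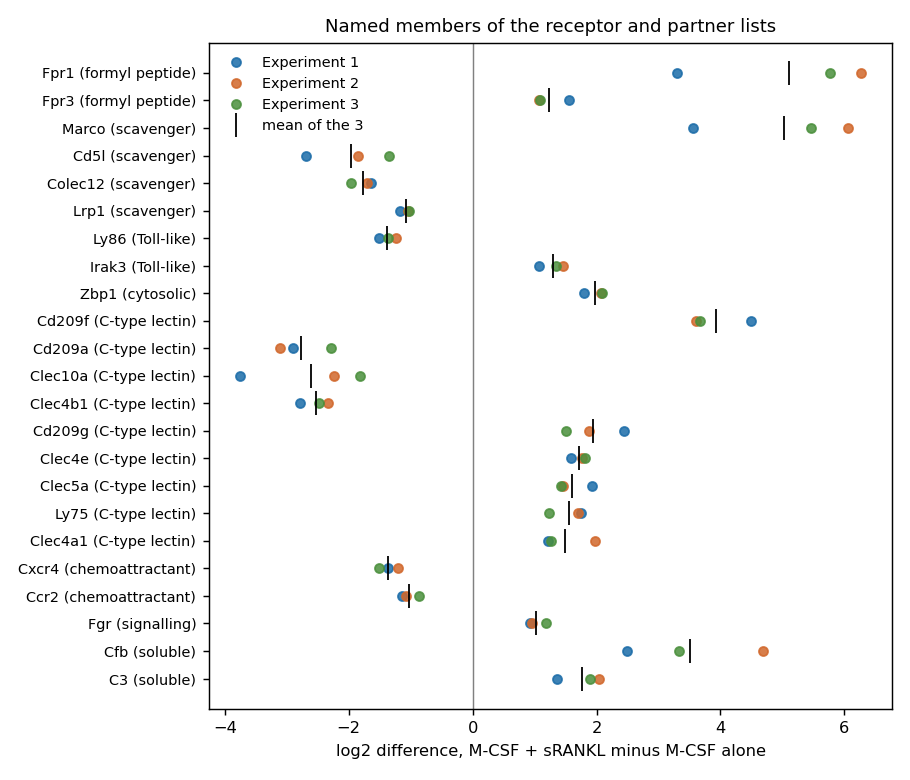
Log2 difference between the partner dishes (sRANKL minus control) of each experiment (points) and its mean (bar) for the 23 named genes of the lists, with the list in brackets. Fpr1 and Marco lie farthest to the right, with their Experiment 1 points, at 3.30 and 3.55, well to the left of their other points.

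Markers of the cell types that such cultures could hold were counted in the same way. Of all 522 named genes 65.3% were higher, and each was named for a change of at least 2-fold. A count of markers that rose is therefore not read as a result. Of 12 osteoclast markers 6 are named (Mmp9, Acp5, Ctsk, Atp6v0d2, Car2 and Itgb3), and all 6 rose, from 15.8-fold for Mmp9 to 2.06-fold for Itgb3 (adjusted p from 0.000255 to 0.00347, limma). Their summed intensity was 5391 to 7376 with sRANKL, and with M-CSF alone 977, 610 and 685 in Experiments 1, 2 and 3. By this sum the control of Experiment 1 was thus the highest of its group, as in several other marker groups below. Taken singly, 5 of the 6 genes were brightest on it among the controls, and Car2 was not. Of all named genes higher with sRANKL 40.8% were brightest on this control array. Mmp9, and Cstdc5 and Stfa1 below, had already been picked for a profile like that of Fpr1 or Marco. Of 21 markers of neutrophils and their precursors, cells in which Fpr1 is typically expressed, 7 are named and all 7 rose, with Cstdc5 at 16.7-fold, Stfa2l1 at 9.27-fold and Stfa1 at 7.79-fold (adjusted p from 0.000255 to 0.00221 for the 7, limma). The others were Ctsg at 4.3-fold, Prtn3 at 3.3-fold, Stfa2 at 2.9-fold and Mpo at 2.5-fold. Without the control array of Experiment 1 the value for Cstdc5 was 25.9-fold. Their summed intensity was 6512 to 10177 under sRANKL, against 2452, 1558 and 1984 in the control dishes, with Experiment 1 again the highest control. Defining neutrophil markers such as Ly6g, S100a8 and S100a9 are not named and were not analysed here. Of 10 markers of tissue-resident macrophages, cells of which only some subsets typically express Marco, Cd209f and Spic are named, and rose 15.2-fold and 2.97-fold. Their summed intensity was 865 to 1237 under sRANKL, against 156, 126 and 172 in the control dishes of Experiments 1, 2 and 3. Of 12 general markers of macrophages and monocytes only Ccr2 is named, so the labelled cell type could hardly be checked. Of 11 dendritic cell markers 5 are named, 1 higher (Ccr7) and 4 lower (Cd209a, Clec10a, Clec4b1 and H2-Eb1). Their summed intensity was 2055 to 3294 with sRANKL, and with M-CSF alone 6747, 6790 and 5464 in Experiments 1, 2 and 3. Of 6 stromal markers Lox and Dcn are named and both rose, with a sum of 550 to 859 with sRANKL. With M-CSF alone this sum was 132, 81 and 84 in Experiments 1, 2 and 3, so Experiment 1 was the highest control here too. Of 4 T or NK cell markers Ccl5 alone is named, at 10.2-fold. Its control values were 423, 174 and 242, again highest in Experiment 1. No B cell, mast cell or basophil marker is named. The part of other cell types in the levels of Fpr1 and Marco was not tested.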

How the data were processed

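RNA of 6 dishes was measured on Affymetrix Mouse Gene 1.0 ST arrays. Per the labels the authors processed the scans with RMA in R, and they deposited linear intensities for 2890 probe sets, selected by rules not given in the sources used here. Columns were assigned through the sample descriptions. Names come from the authors' list of 656 changed probe sets, whose columns of folds and p-values were not used. Symbols were updated by Entrez number in RefSeq (GRCm38.p6), where 547 of 553 were found. With 1 probe set per named gene, that with the highest mean, 2859 rows remained.

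Log2 intensities were fitted with limma 3.58.1 in R 4.3.3 (M-CSF + sRANKL minus M-CSF alone, no block) with Benjamini-Hochberg adjustment over all rows. All standard errors given are limma's moderated ones, for which the variance of each row is drawn towards a value common to all rows. The fit was tested on simulated data with equal, unpaired noise in every row and few changed rows. That setting is unlike these data, so it checks the code only. Summaries used Python 3.11.15 with numpy 2.4.6 and pandas 2.3.3, and plots used matplotlib 3.10.9. Partner dishes were split from a shared pool, which pairs the samples by experiment. In the 3 experiments the deviations of partner dishes from their group means had correlations of 0.605, 0.564 and 0.645. Promoter windows are from RefSeq tables (GRCm38.p6), in which both genes were found.

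The genes, lists and tests were chosen with earlier results of these data known. The genes named are Fpr1, Marco, the 5 most like each, and from each list all named members, or the 3 largest changes where over 6 are named. Others named (Il1a, Ccl12, Ccl7, Gpr84, H2-Eb1, Clec4b1, Ctsg, Prtn3, Stfa2, Mpo) were chosen after their values were seen. Alternatives were each array left out, the block (fixed or random), median centring, quantile normalization, filters on mean log2 intensity (7 and 8), averaging of probe sets per gene, limma-trend, the methods' t-test and another measure of likeness.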

Additional observations from a re-analysis of the deposited data

How the results depend on the processing

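The log2 fold change was between 4.63 and 5.93 for Fpr1 and between 4.58 and 5.72 for Marco when 1 array was left out. The block, the filters on mean intensity and the averaging of probe sets could not move it, since the design is balanced, the filters only remove other rows and each gene has 1 probe set. Without both arrays of Experiment 1, added after seeing the data, it was 6.02 and 5.76. Median centring and quantile normalization, for which the lowest values were 4.92 for Fpr1 and 4.85 for Marco, used only filtered rows, most of which changed. They lowered the median log2 fold change of all rows from 0.42 to 0.27 and 0.21. The replicate block left the fold changes at 5.11 and 5.02, and gave 2613 changed rows against 2235. It changed no call of a listed gene. Its standard errors were 0.46 and 0.38 in place of 0.63 and 0.54, all moderated by limma towards the variance of other rows. The differences between partner dishes themselves had an SD of 1.60 log2 units for Fpr1 and 1.31 for Marco. The smaller standard errors thus do not show that pairing tightened these estimates. Rows past the threshold numbered between 1864 and 2348 with 1 array left out, 1913 by the methods' t-test after adjustment and 1372 when rows needed a mean log2 of 8 or more, which leaves 1653 rows. All 23 list genes passed in each alternative that kept them, which their selection had largely fixed. Of the 5 genes most like Fpr1, 3 were shared when the root mean square difference was used and 3 without the control array of Experiment 1. Of those most like Marco 3 were shared under the former and 4 under the latter. The excess of the control array of Experiment 1 was 2.68 log2 units for Fpr1 after median centring and 2.74 after quantile normalization, against 2.46, and its rank, the sixth of all rows, did not change. That scaling was added after seeing the data. Probe-level signals were not used, so signal over background was not checked.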

Other observations

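Whether rows that were higher with sRANKL in 1 experiment were also brighter on the control array of Experiment 1 was compared over arrays that do not overlap, chosen after seeing the data. Of the 477 rows at least 2-fold higher with sRANKL in Experiment 3, 193 (40.5%) were brighter on the first control array than on that of Experiment 2, and of the other rows 36.4% were. Of the 341 named genes higher with sRANKL, 124 (36.4%) had their smallest difference in Experiment 1, and the median log2 difference of the 341 was 1.42, 1.43 and 1.39 in Experiments 1, 2 and 3. By the shortfall of Experiment 1 against the other experiments, Fpr1 ranked the second and Marco the fourth of these genes, at -2.73 and -2.20 log2 units.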
